A study of Arabidopsis thaliana with 7 samples.

Results

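The exposed state of the CdS QD-tolerant lines was described on 3 of the 7 arrays of the series: atnp01 at 80 mg/L and atnp02 at 80 mg/L, each set against WT at 80 mg/L. The arrays were chosen by their labels alone. A gene was kept when the brightest of these 3 arrays read log2 6 or above, with 1 probe set per gene and the control probe sets left out. This gave 1874 genes of 13355, or 14% of those with a name. A gene was called shared when both mutants were at least 2-fold from WT in the same direction, that is, by a log2 difference of 1 or more.

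The study asked which transcripts differ in Arabidopsis thaliana seedlings that tolerate cadmium sulfide quantum dots (CdS QDs), which are nanometre-sized semiconductor crystals. All plants were of the accession Ler-0. They were 14 days old when moved to plates with or without CdS QDs, where they stayed for 21 days (24 °C, 16 h of light, humidity of 30%). The exposed groups were the mutant atnp01 at 80 mg/L, the mutant atnp02 at 80 mg/L and WT at 80 mg/L, which the labels call the minimum inhibitory concentration of WT. The groups set beside them were atnp01, atnp02 and WT at 0 mg/L, and WT at 40 mg/L. Which genes are disrupted in atnp01 and atnp02 is not stated in the labels. Each group had 1 array made from 0.1 g of plant material, so no difference between a pair of arrays carries an error or a p-value. All values are log2 as deposited.

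Cadmium binds thiols and displaces essential metals, and plants meet it with glutathione, phytochelatins, metallothioneins and vacuolar transport. A plant under stress also shifts resources between growth and defence. Expansins and xyloglucan endotransglucosylases loosen the cell wall and allow cells to enlarge. Chitinases, lipid transfer proteins and many cytochromes P450 belong to the defence and surface chemistry of the plant.

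The 3 exposed arrays had medians of 3.43 in atnp01, 3.46 in atnp02 and 3.47 in WT. Leaf and root are both parts of a seedling, and markers of leaf and the root gene PYK10 were bright on all 3. RCA, the activase of Rubisco and a leaf marker, read 11.49 in atnp01, 11.46 in atnp02 and 11.46 in WT. PYK10, an abundant glucosidase of roots, read 10.35 in atnp01, 10.49 in atnp02 and 10.23 in WT. The only other annotated gene of the root list, EXPA7, was dim, at 1.31 in atnp01, 1.48 in atnp02 and 1.29 in WT. Housekeeping genes and the arrays as a whole were level between mutants and WT. The reference genes GAPC2 and PEX4 differed from WT by 0.07 and -0.11 in atnp01, and by 0.14 and -0.16 in atnp02. Over all genes the median difference was 0.00 in atnp01 and -0.02 in atnp02. Values repeated within an array, 6247 times in atnp01, 6290 in atnp02 and 5928 in WT, so small differences between dim probe sets were not read.

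Exposed to 80 mg/L, both mutants had higher levels of a chitinase, a cytochrome P450, a ubiquitin ligase, a lipid transfer protein and a sugar transporter than WT. Both had lower levels of an expansin, a xyloglucan endotransglucosylase and a further cell-wall protein, of the plastid gene ycf3, and of AT2G15560, which was near background in both. In atnp01, 25 genes (1.33%) were at least 2-fold from WT, 11 higher (0.587%) and 14 lower (0.747%). Counts were alike in the other mutant. In atnp02, 23 genes (1.23%) were at least 2-fold from WT, 11 higher (0.587%) and 12 lower (0.64%). In all, 12 genes (0.64%) were shared, 5 higher (0.267%) and 7 lower (0.374%), and 0 genes were 2-fold in opposite directions. The comparisons use the same WT array, so a low or high value on it enters both, and the shared count is a description of these 3 arrays. In bulk samples such as these, fewer cells of a type and less RNA per cell cannot be told apart. By sign alone, 666 genes were above WT in both mutants, 747 were below WT in both, and 461 differed in sign or lay at 0 in 1 of them.

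**Figure D1:**
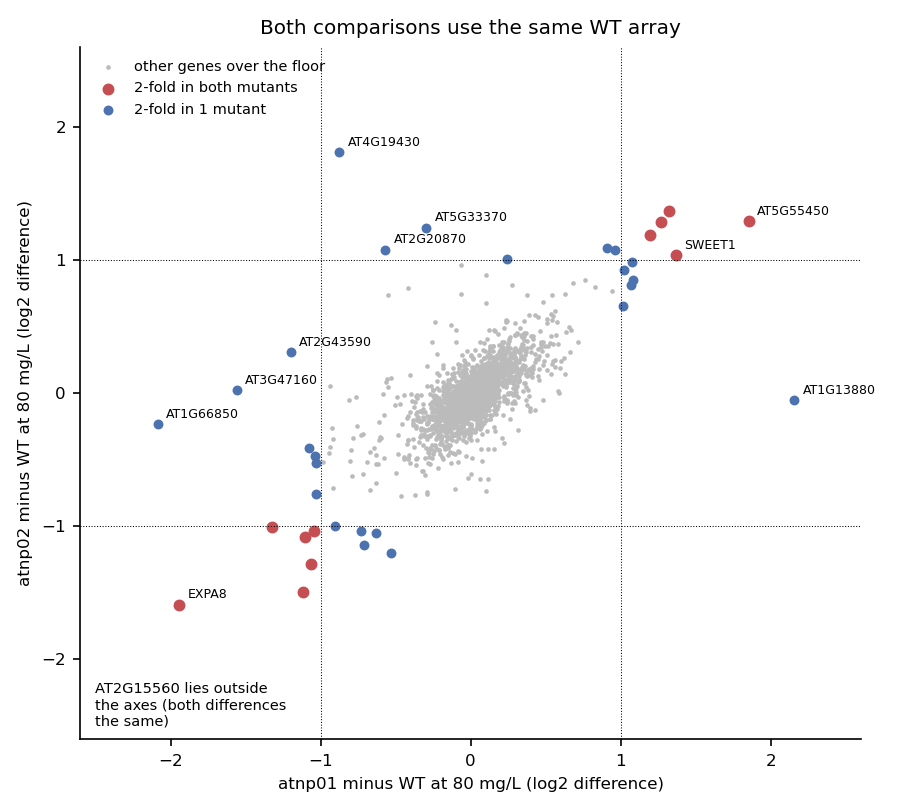
Each point is a gene over the floor, placed by its log2 difference from WT at 80 mg/L in atnp01 (x axis) and in atnp02 (y axis). Dotted lines mark 2-fold, red points are the shared genes, blue points were 2-fold in 1 mutant, and AT2G15560 lies outside the axes at -5.28 in both.

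The 5 genes that were higher in both mutants come from different families, and they passed the floor through the mutant arrays alone. CHI (AT2G43570), a gene of the chitinase family, read 6.66 in atnp01 and 6.70 in atnp02, against 5.33 in WT. Both mutants were therefore above WT, by 1.32 and 1.37. CYP71B23, a cytochrome P450, read 6.09 in atnp01 and 6.10 in atnp02, against 4.82 in WT, differences of 1.27 and 1.29. RING1 (AT5G10380), a RING-type ubiquitin ligase of the plasma membrane that takes part in the cell death response to pathogens, read 6.37 in atnp01 and 6.37 in atnp02, against 5.18 in WT. Its difference was 1.19 in each mutant. For each of these 3 genes the mutant arrays lay within 0.05 of each other.

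AT5G55450, a member of the lipid transfer protein family, read 7.17 in atnp01 and 6.60 in atnp02, against 5.31 in WT. Its difference of 1.85 in atnp01 was the largest of the shared higher genes, and that in atnp02 was 1.29. SWEET1, which carries glucose across membranes, read 7.20 in atnp01 and 6.86 in atnp02, against 5.83 in WT. The differences were 1.37 and 1.03. A gene that passes the floor on the mutant arrays alone has a WT level under log2 6 by the filter, so the order of these levels is part of how the genes were chosen.

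Among the genes that were lower in both mutants, 3 encode proteins of the cell wall. EXPA8, an alpha-expansin, read 5.30 in atnp01 and 5.65 in atnp02, against 7.24 in WT. The differences were -1.94 and -1.59, the widest among the lower genes after AT2G15560. XTH19, a xyloglucan endotransglucosylase that cuts and rejoins wall xyloglucan, read 5.10 in atnp01 and 4.72 in atnp02, against 6.22 in WT, differences of -1.11 and -1.49. AT5G11420, which encodes a cell-wall protein of the DUF642 family, read 5.09 in atnp01 and 5.41 in atnp02, against 6.41 in WT, differences of -1.32 and -1.01. All 3 passed the floor through the WT array alone, as did AT2G15560, so their direction is set in part by the filter. Another expansin gene, EXPA4, read 5.09 in atnp01 and 5.65 in atnp02, against 6.12 in WT, and was 2-fold lower only in atnp01, by -1.04, with -0.47 in atnp02.

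Of the other genes that were lower in both, AT2G15560 stood far from the rest. It read 1.95 in atnp01 and 1.95 in atnp02, against 7.23 in WT. Its difference was -5.28 in each mutant, from a value near the bottom of the scale, where the lowest value of the series is 0.31, so the fold has no exact size. AT2G15560 is also 1 of 36 genes with the identical value on both mutant arrays. Its function is not described in the annotation used here.

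AT5G22580, of a stress-responsive family with an A/B barrel fold, read 6.81 in atnp01 and 6.83 in atnp02, against 7.91 in WT, differences of -1.10 and -1.08. AT3G54400, of the aspartyl protease family, read 6.12 in atnp01 and 6.12 in atnp02, against 7.16 in WT, a difference of -1.04 in each. The plastid gene ycf3, whose product helps to assemble photosystem I, read 6.77 in atnp01 and 6.55 in atnp02, against 7.83 in WT, differences of -1.06 and -1.28. In each of these genes the mutant arrays lay closer to each other than to WT. Over all 12 shared genes, the widest gap between the mutants at 80 mg/L was 0.56, for AT5G55450.

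Near the threshold, the shared genes with the smallest differences were AT5G11420 (-1.32 and -1.01), SWEET1 (1.37 and 1.03) and AT3G54400 (-1.04 and -1.04), in atnp01 and atnp02 in that order. The nearest genes outside it were AT3G23570 (1.07 and 0.98), ECS1 (0.96 and 1.08) and AT3G14280 (1.02 and 0.92).

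**Figure D2:**
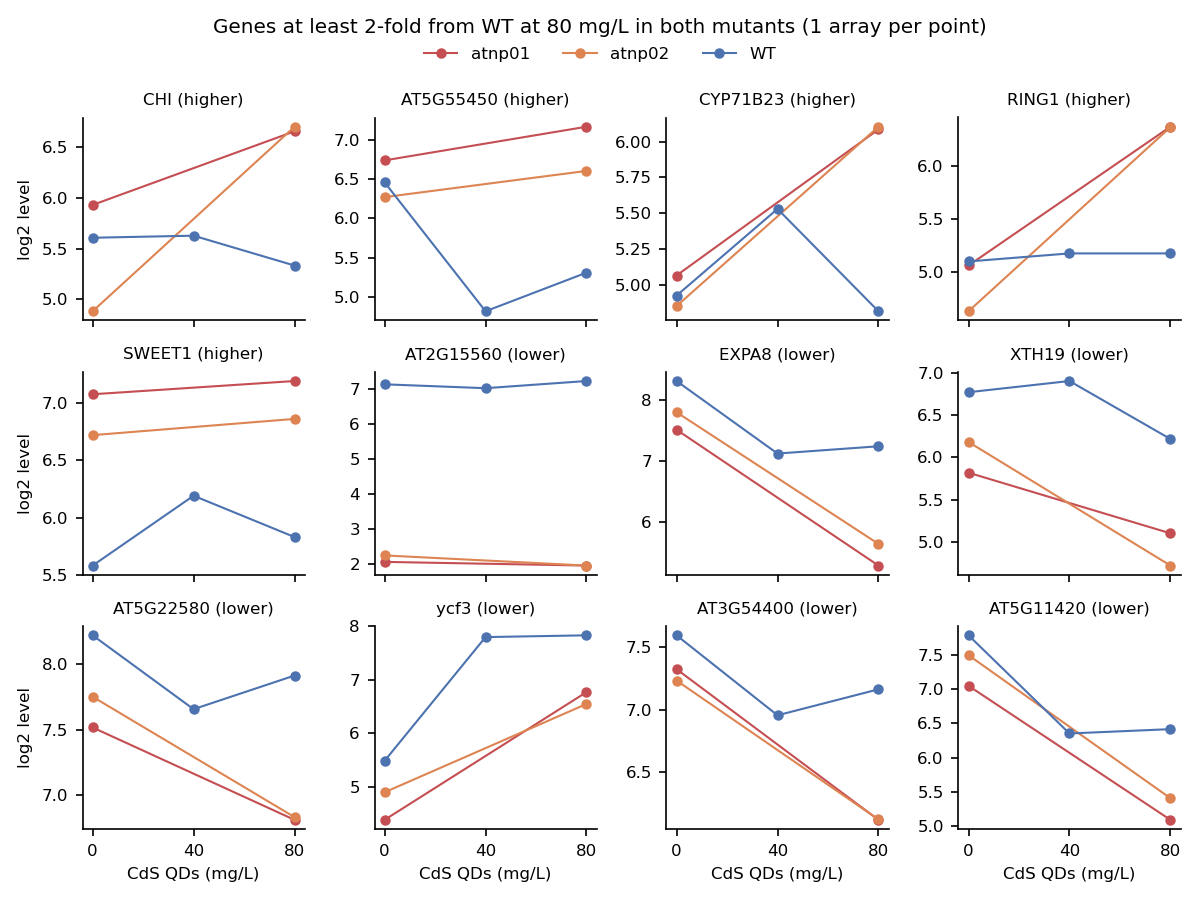
Each panel is 1 shared gene, with its log2 level (y axis, own scale) against the dose of CdS QDs in mg/L (x axis) for atnp01, atnp02 and WT, 1 array per point. At 80 mg/L both mutants lie on the same side of WT in each panel, and AT2G15560 and SWEET1 show the same separation at 0 mg/L.

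The mutants were also tested as 2 members of 1 class against WT, in limma over the 6 arrays at 0 and 80 mg/L. The error in this fit is the difference between the mutants at each dose, with 2 residual degrees of freedom, and the lone WT array is assumed to vary as they do. At 80 mg/L, 0 of the 1874 genes (0%) had an adjusted p under 0.05 by limma with Benjamini-Hochberg adjustment, and 185 had an unadjusted p under 0.05. The smallest adjusted p was 0.196, which among the shared genes AT3G54400 reached with a mean difference of -1.04 ± 0.09 (SE), EXPA8 with -1.77 ± 0.20 and AT5G22580 with -1.09 ± 0.13. Other shared genes gave CYP71B23 1.28 ± 0.19 (adjusted p = 0.212), XTH19 -1.30 ± 0.24 (0.273) and RING1 1.19 ± 0.23 (0.301), all by limma. For AT2G15560 the intensity trend of the moderation set the error. Its limma SE was 1.24 and its adjusted p 0.365 with the trend, and its SE was 0.11 and its adjusted p 0.000689 without it. It was the only gene (0.0534%) called without the trend.

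The arrays at 0 mg/L share no RNA with those at 80 mg/L and show which differences were already present without CdS QDs. At 0 mg/L, 17 genes (0.907%) were 2-fold from WT in atnp01, 7 higher (0.374%) and 10 lower (0.534%), and 12 (0.64%) in atnp02, 3 higher (0.16%) and 9 lower (0.48%). These counts use the floor set at 80 mg/L, so a gene bright only at 0 mg/L could not enter them. All 7 shared lower genes were also below WT in both unexposed mutants, and 1 of the 5 shared higher genes, SWEET1, was above WT in both. The comparisons at 0 mg/L use the same WT array, and the same shares over all genes were not counted, so these counts are a description. At least 2-fold differences in both unexposed mutants were found for 2 of the 12 genes, AT2G15560 and SWEET1. In 10 of the 12 genes the difference was smaller at 0 than at 80 mg/L in both mutants, taken in the direction seen at 80 mg/L. Such shrinking is partly set by the choice of genes for their size at 80 mg/L. The exceptions were SWEET1 in both mutants and ycf3 in atnp01.

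SWEET1 and AT2G15560 differed between the lines at either dose and little between doses. SWEET1 read 7.08 in atnp01 and 6.72 in atnp02, against 5.58 in WT, at 0 mg/L. AT2G15560 read 2.05 in atnp01 and 2.24 in atnp02, against 7.13 in WT, at 0 mg/L, differences of -5.08 and -4.90. No other shared gene showed a difference of this constancy.

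The other 4 genes that were higher under exposure behaved otherwise. RING1 at 0 mg/L read 5.06 in atnp01 and 4.63 in atnp02, against 5.10 in WT, so that no mutant was above WT. Between 80 and 0 mg/L its level differed by 1.31 in atnp01 and 1.74 in atnp02, against 0.08 in WT. CYP71B23 at 0 mg/L read 5.07 in atnp01 and 4.85 in atnp02, against 4.93 in WT, and was higher at 80 than at 0 mg/L by 1.02 in atnp01 and 1.25 in atnp02, with -0.11 in WT. In both genes each mutant array was at least 2-fold higher at 80 than at 0 mg/L, while WT at 80 mg/L lay close to WT at 0 mg/L. On WT at 40 mg/L RING1 read 5.18, as at 80 mg/L. CYP71B23 read 5.53 there, between WT at 80 mg/L and the exposed mutants.

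CHI at 0 mg/L read 5.93 in atnp01 and 4.88 in atnp02, against 5.61 in WT, so that WT lay between the mutants. It was higher at 80 than at 0 mg/L by 0.73 in atnp01 and 1.82 in atnp02, with -0.27 in WT. AT5G55450 at 0 mg/L read 6.74 in atnp01 and 6.27 in atnp02, against 6.46 in WT. Here it was WT that differed between doses, by -1.15 between 80 and 0 mg/L, against 0.43 in atnp01 and 0.33 in atnp02. The WT array at 40 mg/L was also low for AT5G55450, at 4.82.

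The 3 shared wall genes were lower at 80 than at 0 mg/L in every line. This held for 5 of the 7 shared lower genes and is not particular to wall genes. EXPA8 at 0 mg/L read 7.51 in atnp01 and 7.79 in atnp02, against 8.30 in WT, and differed between 80 and 0 mg/L by -2.21 in atnp01 and -2.14 in atnp02, against -1.06 in WT. XTH19 at 0 mg/L read 5.82 in atnp01 and 6.18 in atnp02, against 6.77 in WT. Between 80 and 0 mg/L XTH19 differed by -0.72 in atnp01 and -1.46 in atnp02, against -0.55 in WT. AT5G11420 at 0 mg/L read 7.05 in atnp01 and 7.49 in atnp02, against 7.78 in WT, and differed between the doses by -1.96 in atnp01 and -2.09 in atnp02, against -1.37 in WT. In all 3 genes the mutants were lower than WT at both doses, and further from it at 80 mg/L. The expansin gene EXPA4, not among the shared genes, differed between 80 and 0 mg/L by -0.83 in atnp01 and -0.72 in atnp02, against 0.46 in WT.

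AT5G22580 at 0 mg/L read 7.52 in atnp01 and 7.75 in atnp02, against 8.22 in WT, differences of -0.70 and -0.47. AT3G54400 at 0 mg/L read 7.32 in atnp01 and 7.23 in atnp02, against 7.59 in WT, differences of -0.27 and -0.36. Both genes were below WT without exposure, but by less than 2-fold. Both were also lower at 80 than at 0 mg/L in every line. AT5G22580 differed between the doses by -0.70 in atnp01 and -0.92 in atnp02, against -0.31 in WT. AT3G54400 differed between them by -1.20 in atnp01 and -1.11 in atnp02, against -0.43 in WT. In contrast, ycf3 was higher at 80 than at 0 mg/L in every line. It read 4.38 in atnp01 and 4.90 in atnp02, against 5.49 in WT, at 0 mg/L, differences of -1.10 and -0.59.

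The change of the difference between 80 and 0 mg/L was tested in the same limma fit, and 0 of 1874 genes (0%) had an adjusted p under 0.05, with 109 at an unadjusted p under 0.05 and a smallest adjusted p of 0.598. The largest estimates among the shared genes were thus not called. The estimate was 1.55 for CHI (limma adjusted p = 0.744), 1.53 for AT5G55450 (0.744), 1.45 for RING1 (0.705), 1.24 for CYP71B23 (0.696), -1.12 for EXPA8 (0.729) and -0.72 for AT3G54400 (0.598). With each line as a block, which leaves 1 residual degree of freedom, limma called 12 genes (0.64%), 7 positive and 5 negative. They include AT5G55450 (1.53, adjusted p = 0.00455), EXPA8 (-1.12, 0.0154), the calmodulin-like gene AT2G41090 (1.15, 0.0154) and EXPA4 (-1.23, 0.0359). In that fit the error is how far the mutants' responses to the dose differ. The change relative to WT was 1.58 in atnp01 and 1.48 in atnp02 for AT5G55450, and -1.15 and -1.08 for EXPA8. At 80 mg/L AT5G55450 passed the floor through the mutant arrays alone, and EXPA8 and EXPA4 through the WT array alone. The direction of their change is therefore set in part by the filter. Across the 1874 genes the differences at 80 and 0 mg/L had a Pearson r of 0.37 in atnp01 and 0.276 in atnp02, and of 0.226 and 0.085 without AT2G15560.

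**Figure D3:**
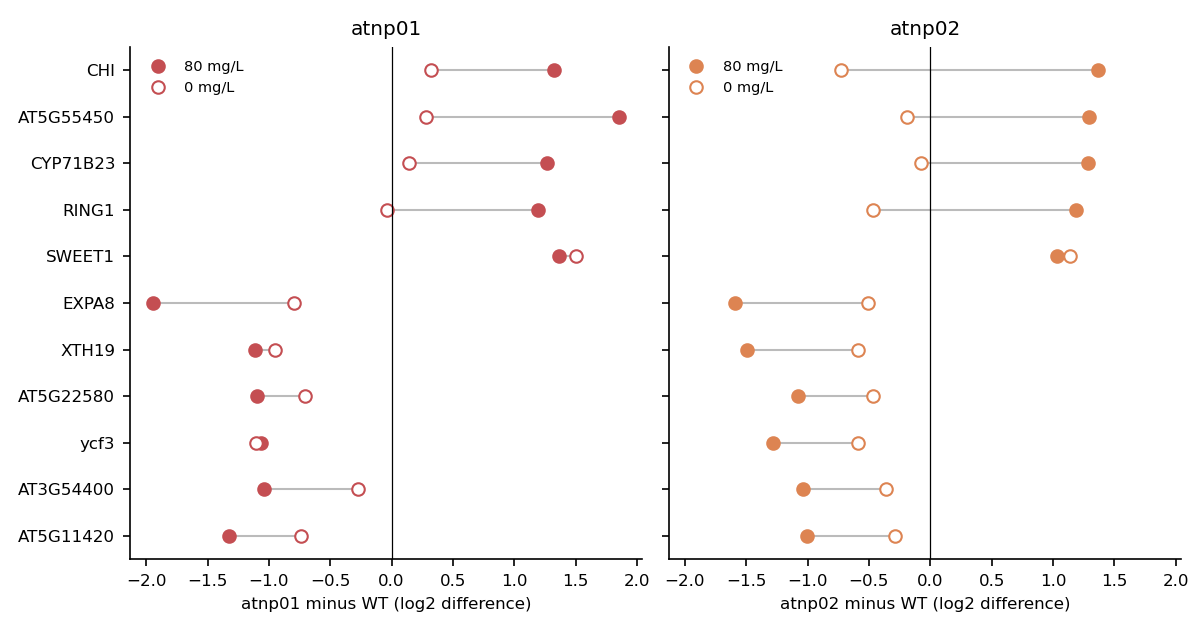
Log2 difference from WT (x axis) in atnp01 (left) and atnp02 (right) for 11 shared genes at 80 mg/L (filled) and 0 mg/L (open), 1 array per point, with AT2G15560 left out for its size. SWEET1 lies at the same place at both doses, while the other higher genes lie near or below 0 at 0 mg/L.

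WT at 40 mg/L was the only other exposed WT array, at another dose. Between WT at 80 and at 40 mg/L, 44 genes (2.35%) were 2-fold apart, 38 higher at 80 mg/L (2.03%) and 6 lower (0.32%), which is more than between either mutant and WT at 80 mg/L. The floor was set on the arrays at 80 mg/L, so a gene bright only on WT at 40 mg/L could not enter. The number and split of these 44 genes are thus set in part by the filter. None of the 12 shared genes was among the 44, which says little for 12 genes when 2.35% of all genes were. The widest gap was 0.71, for CYP71B23. All 12 shared genes lay on the same side of WT at 40 mg/L as of WT at 80 mg/L in both mutants. No other outcome was possible, since each mutant differed from WT at 80 mg/L by at least 1, more than the widest gap. Of the 12 shared genes, 7 were also 2-fold from WT at 40 mg/L in both mutants. They were 3 higher (CHI, RING1 and AT5G55450) and 4 lower (AT2G15560, EXPA8, XTH19 and ycf3). The others were AT3G54400, AT5G11420, AT5G22580, CYP71B23 and SWEET1.

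A further 24 genes were 2-fold from WT at 80 mg/L in 1 mutant, 13 in atnp01 and 11 in atnp02, so that 36 genes (1.92%) passed in at least 1. Of these 24, 18 had the same sign in the other mutant. Over all 1874 genes, 666 were above WT in both mutants and 747 below it in both. The count of 18 is thus near the share over all genes and is not particular to these 24. Several of the higher ones were near the threshold in both. AT2G41090, a gene for a calmodulin-like calcium-binding protein, read 9.97 in atnp01 and 9.74 in atnp02, against 8.89 in WT, differences of 1.08 and 0.85. It read 9.01 in atnp01 and 8.60 in atnp02, against 8.99 in WT, at 0 mg/L, so WT lay between the unexposed mutants. On WT at 40 mg/L it read 9.58, nearer to the exposed mutants than to WT at 80 mg/L. ECS1, which encodes a small cell-wall protein, read 7.39 in atnp01 and 7.50 in atnp02, against 6.42 in WT, differences of 0.96 and 1.08.

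AT3G23570, of the alpha/beta-hydrolase family, read 7.83 in atnp01 and 7.74 in atnp02, against 6.76 in WT. AT3G14280 read 6.87 in atnp01 and 6.77 in atnp02, against 5.85 in WT. Both lay above WT at 80 mg/L by about 2-fold in each mutant. On WT at 40 mg/L AT3G23570 read 7.12 and AT3G14280 read 6.52, between WT at 80 mg/L and the exposed mutants. AT1G65500 read 6.52 in atnp01 and 6.26 in atnp02, against 5.45 in WT. AT1G19960 read 6.56 in atnp01 and 6.74 in atnp02, against 5.65 in WT. In these 4 genes both mutants stood above WT, by at least 0.81.

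Genes of the GDSL esterase and lipase family lay on both sides of WT. AT5G33370 was 2-fold higher in atnp02, by 1.24, with -0.30 in atnp01, and the next 3 were lower in both mutants. AT1G29660 read 5.35 in atnp01 and 4.92 in atnp02, against 6.06 in WT, differences of -0.71 and -1.14. AT1G29670, its neighbour on the chromosome, read 6.24 in atnp01 and 6.52 in atnp02, against 7.28 in WT, differences of -1.03 and -0.76. Another member, AT3G16370, read 6.72 in atnp01 and 6.93 in atnp02, against 7.64 in WT. AT1G29670 and AT3G16370 were picked out after their values were seen, and GDSL genes were not on a list.

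The glycine-rich protein gene AT4G29020 read 6.29 in atnp01 and 6.20 in atnp02, against 7.20 in WT. Its neighbour AT4G29030, also picked out after its values were seen, read 5.17 in atnp01 and 5.68 in atnp02, against 6.20 in WT. The neighbours were thus low together. DRT100, a leucine-rich repeat protein gene, read 5.80 in atnp01 and 6.46 in atnp02, against 6.87 in WT. AT5G44020, of the acid phosphatase family, read 5.48 in atnp01 and 5.17 in atnp02, against 6.21 in WT. All 4 genes were below WT in both mutants.

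Other genes separated the mutants. Between atnp01 and atnp02 at 80 mg/L, 10 genes (0.534%) were 2-fold apart, 1 higher in atnp01 (0.0534%) and 9 lower (0.48%), and at 0 mg/L 12 genes (0.64%). AT1G13880, which encodes a protein with an ELM2 domain, read 7.03 in atnp01, against 4.82 in atnp02 and 4.87 in WT. It was as high in unexposed atnp01, at 6.84, against 4.77 in atnp02 and 4.87 in WT. It was therefore higher in atnp01 by 2.16 at 80 mg/L and 1.98 at 0 mg/L, while atnp02 differed from WT by -0.06 and -0.10.

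AT3G47160, of the RING/U-box family, differed the other way. It read 6.69 in atnp01 at 80 mg/L, against 8.27 in atnp02 and 8.25 in WT, and 6.43 in atnp01 at 0 mg/L, against 7.32 in atnp02 and 7.19 in WT. AT2G43590, a chitinase-family gene close to CHI, read 6.57 in atnp01, against 8.07 in atnp02 and 7.77 in WT, opposite to CHI in atnp01. The differences in atnp01 at 80 mg/L were -1.56 for AT3G47160 and -1.20 for AT2G43590.

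AT1G66850, of the lipid transfer protein family, read 4.05 in atnp01, against 5.90 in atnp02 and 6.13 in WT, at 80 mg/L, but 4.34 in atnp01, against 2.05 in atnp02 and 2.74 in WT, at 0 mg/L. AT2G20870, a cell-wall protein gene, read 5.07 in atnp01, against 6.71 in atnp02 and 5.63 in WT, at 80 mg/L. Without exposure it read 4.60 in atnp01, against 2.34 in atnp02 and 3.59 in WT. AT5G33370, a GDSL gene, had the same pattern, at 4.75 in atnp01, against 6.29 in atnp02 and 5.04 in WT, at 80 mg/L, and at 4.16 in atnp01, against 2.47 in atnp02 and 3.51 in WT, at 0 mg/L. Each of these 3 genes was lower in atnp01 than in atnp02 at 80 mg/L and higher in atnp01 at 0 mg/L.

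AT4G19430 read 6.42 in atnp02 at 80 mg/L, against 3.73 in atnp01 and 4.61 in WT, the widest gap between the mutants. Some markers of seed tissue were higher on the atnp02 array at 80 mg/L, while others were not. Of 24 genes on the list of seed storage and maturation, the annotation held 9, and 0 reached log2 6. Their mean log2 level was 1.58 in atnp01, 2.88 in atnp02 and 1.24 in WT at 80 mg/L, and between 1.11 and 1.35 on the other arrays. AT2G28490, a cupin of the seed storage type, read 0.85 in atnp01, 4.68 in atnp02 and 0.88 in WT. AT1G03890, another cupin, read 1.12 in atnp01, 4.34 in atnp02 and 0.94 in WT. The mean is carried by part of the list. M17 read 0.62 in both mutants and 0.60 in WT, and AT3G22490 read 0.89 in both mutants and 0.92 in WT. LEA4-5 read 2.23 in atnp02 at 80 mg/L, below its 2.48 in unexposed atnp01. The part of seed tissue in the differences of atnp02 was not tested.

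PAP85, a vicilin-like seed protein gene of the same list, was high in both mutants, at 5.02 in atnp01 and 5.44 in atnp02, against 3.18 in WT. Genes of type III lipid transfer proteins, which mark the anther tapetum and were picked out after their values were seen, were lower in both. AT5G62080 read 4.39 in atnp01 and 4.34 in atnp02, against 5.45 in WT, and AT5G52160 read 2.04 in atnp01 and 2.19 in atnp02, against 3.30 in WT. On WT at 40 mg/L these genes read 3.50 and 1.82, so the WT array at 80 mg/L was the high one. The 12 genes of the flower list were not on the annotation. The part of the stage of the plants in the shared differences was not tested.

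At a smaller fold, 34 genes (1.81%) were at least 1.5-fold from WT in both mutants in the same direction, 17 higher (0.907%) and 17 lower (0.907%). This threshold and the genes named here were chosen after the data were seen. AMY1, a secreted alpha-amylase that breaks down starch, read 7.24 in atnp01 and 7.06 in atnp02, against 6.30 in WT. AT1G30700, of the berberine bridge enzyme family, read 6.93 in atnp01 and 6.56 in atnp02, against 5.91 in WT. AT3G18250 read 7.24 in atnp01 and 7.32 in atnp02, against 6.47 in WT. These 3 were among the 17 higher genes.

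Among the 17 lower genes were PDF1.2b and PDF1.2, which encode antifungal defensins induced by jasmonate and ethylene. PDF1.2b read 7.47 in atnp01 and 7.64 in atnp02, against 8.26 in WT. PDF1.2 read 5.66 in atnp01 and 5.78 in atnp02, against 6.38 in WT. The probes of PDF1.2b may also match related sequences, so the pair may not be separate readings. On WT at 40 mg/L PDF1.2b read 6.73 and PDF1.2 read 5.21, below both mutants, so their direction depends on which exposed WT array is used. AT1G66180, of the aspartyl protease family like AT3G54400, read 6.12 in atnp01 and 6.07 in atnp02, against 6.79 in WT, and AT5G13090 read 5.78 in atnp01 and 5.73 in atnp02, against 6.41 in WT. In these 4 genes the differences of both mutants from WT lay between -0.79 and -0.61.

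Gene groups chosen for cadmium, nanoparticle stress, defence and growth were then set against the same arrays. Of the 622 entries on the 28 lists, the annotation held 165 and 68 passed the floor, so most lists stand on few genes. With the plastid-encoded and mitochondrion-encoded genes added, 11 of 108 genes over the floor were 2-fold in at least 1 mutant, against 1.92% of all genes, and the lists were chosen with earlier results of these data known. For expansins and xyloglucan endotransglucosylases, 3 of the 16 annotated genes reached the floor, and 3 were 2-fold lower in atnp01 and 2 in atnp02. All 3 passed the floor through the WT array alone, and a member that passes in this way had to be lower in the mutants. Over all 16 annotated members, most of them under the floor, the median difference was -0.43 in atnp01 and -0.09 in atnp02. The medians of 0.00 and -0.02 over all genes cover only genes over the floor and are not a like comparison. Members such as EXPA7, at 1.31 in atnp01 and 1.29 in WT, and XTH20, at 1.19 and 1.21, were too dim to show a decrease. Whether the wider family shared the size of EXPA8 and XTH19 could therefore not be read.

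The lists for metals and oxidative stress held few genes over the floor, and with 1.92% of all genes 2-fold in at least 1 mutant a count of 0 in lists of this size says little. Of 6 annotated genes of reactive oxygen scavenging, 4 reached the floor and 0 were 2-fold, with medians of 0.02 in atnp01 and -0.05 in atnp02. Single genes of metal and nutrient handling were also measured. MT1C, a metallothionein, read 10.44 in atnp01 and 10.22 in atnp02, against 10.15 in WT. BGLU28, a glucosidase that marks sulfur limitation, read 8.56 in atnp01 and 8.19 in atnp02, against 7.95 in WT. AT1G47400, which encodes a small peptide made under iron deficiency, read 5.07 in atnp01, against 6.06 in atnp02 and 6.01 in WT. Both BGLU28, by 0.60, and AT1G47400, by -0.94, were more than 1.5-fold from WT in atnp01. On WT at 40 mg/L they read 8.89 and 1.01, so these directions depend on which exposed WT array is used. Peroxidases, which use hydrogen peroxide in the cell wall, showed no 2-fold member. Of 25 annotated class III peroxidases, 6 reached the floor and 0 were 2-fold, with medians of 0.02 in atnp01 and 0.01 in atnp02.

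Of the glutathione transferases, 4 of 10 annotated genes reached the floor and 1, GSTU20, was 2-fold, in atnp02. It read 7.51 in atnp01 and 8.27 in atnp02, against 7.26 in WT at 80 mg/L. On WT at 40 mg/L it read 8.65, above both mutants, so its direction depends on which exposed WT array is used. Its level at 0 mg/L was 9.26 in atnp01, 9.29 in atnp02 and 9.55 in WT.

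Glucosinolate genes, which make sulfur-rich defence compounds, were closer to WT in atnp01 than in atnp02. Of 5 annotated genes 4 reached the floor, with 2 of these above WT in atnp01 and 4 in atnp02, with medians of 0.02 in atnp01 and 0.64 in atnp02, and 0 were 2-fold. Over all 5 the medians were -0.06 in atnp01 and 0.39 in atnp02, and AOP3 passed the floor through the atnp02 array alone. BCAT4, which starts methionine chain elongation, read 8.10 in atnp01 and 8.89 in atnp02, which is 0.10 and 0.89 above WT. AOP3, which modifies the side chain, read 5.84 in atnp01 and 6.86 in atnp02, against 5.90 in WT. On WT at 40 mg/L these genes read 8.99 and 7.40, above both mutants at 80 mg/L.

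Photosynthesis genes of the nucleus did not separate the lines. All 12 annotated members reached the floor, 0 were 2-fold, and the medians were 0.01 in atnp01 and -0.06 in atnp02. Genes of salicylate and systemic immunity could not be read over the floor, since 4 of 36 were annotated and 0 reached it. Their median was 0.54 in atnp01 and 0.39 in atnp02. GRX480, a glutaredoxin induced by salicylate, read 5.15 in atnp01 and 4.59 in atnp02, against 3.85 in WT, and WRKY53, a transcription factor of senescence and defence, read 3.39 in atnp01 and 3.45 in atnp02, against 2.62 in WT. On WT at 40 mg/L GRX480 read 4.92, between the exposed mutants, so its direction in atnp02 depends on which exposed WT array is used. The other annotated members lay nearer to WT at 80 mg/L. BIK1, the brightest, differed from it by 0.11 in atnp01 and -0.12 in atnp02, and SAG101 by 0.31 and 0.03. All 4 were under the floor on the 3 arrays.

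**Figure D4:**
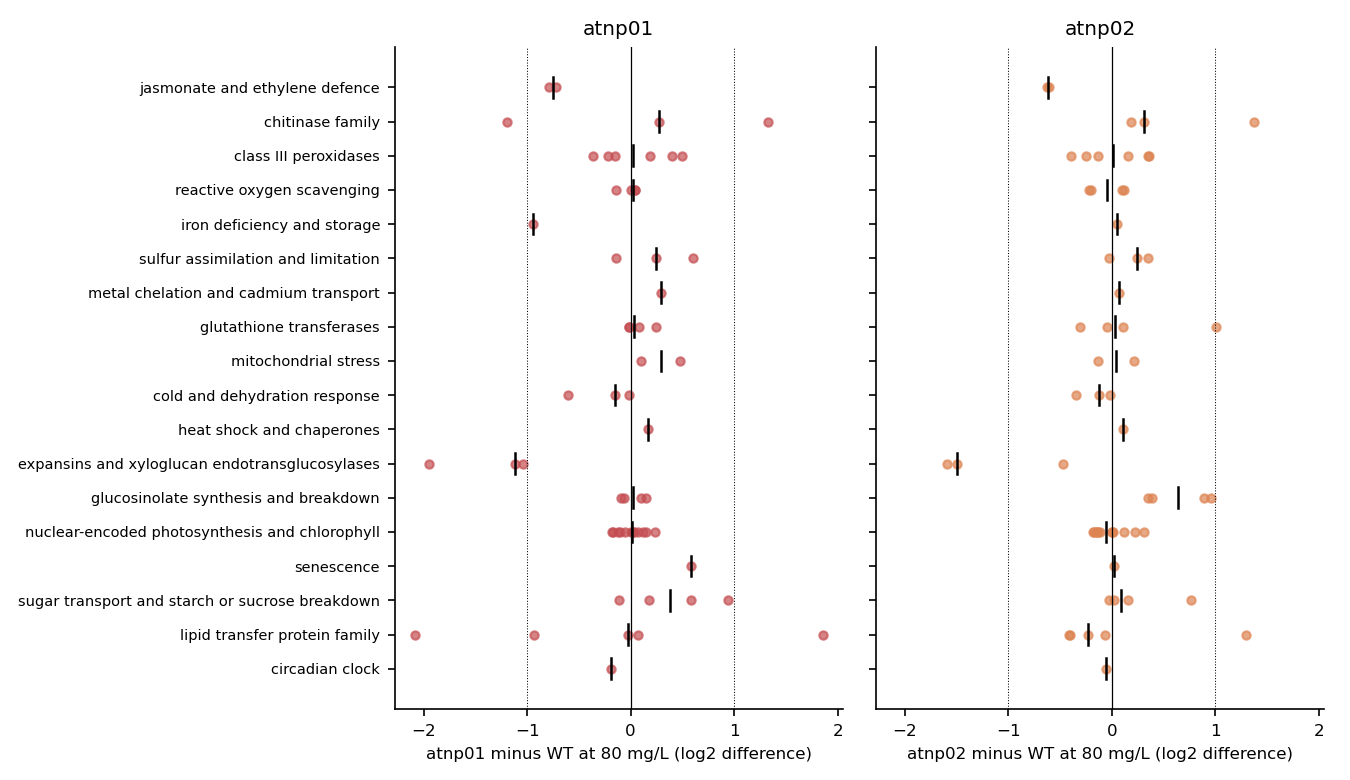
Each row is a gene list and each point a member over the floor, at its log2 difference from WT at 80 mg/L in atnp01 (left) and atnp02 (right). Black bars are list medians and dotted lines mark 2-fold, and the 3 members of the expansin and xyloglucan endotransglucosylase list, which passed the floor through the WT array alone, lie below 0 in both panels.

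Plastid-encoded genes were the largest group of 1 origin, with 48 of 69 over the floor. Their median difference from WT was 0.07 in atnp01 and -0.18 in atnp02. Over all 69 the medians were 0.00 and -0.29. In atnp01 1 was 2-fold lower, ycf3, against 0.747% of all genes, and in atnp02 3 were, ycf3, psbN and psbD, against 0.64% of all genes. The photosystem II gene psbD read 5.59 in atnp01 and 4.92 in atnp02, against 6.12 in WT, and psbN, whose product serves the assembly of photosystem II, read 6.61 in atnp01 and 6.20 in atnp02, against 7.24 in WT. On WT at 40 mg/L psbD read 5.44 and psbN 6.58, below atnp01 and above atnp02. Both mutants were below WT for 18 of the 48 and above it for 16. Over all 1874 genes, 747 were below WT in both and 666 above it, so these plastid counts are near the shares over all genes.

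The mutants differed from each other in this group. In 44 of the 48 genes atnp02 was lower than atnp01, against 55.1% of all 1874 genes, with a median difference of atnp01 from atnp02 of 0.23, against 0.02 over all genes. Transcripts of the plastid share 1 genome and its RNA processing, so these genes are not independent readings. At 0 mg/L the medians were -0.31 in atnp01 and -0.34 in atnp02, against 0.05 and -0.003 over all genes. At that dose 35 of the 48 were below WT in both, and the same share over all genes was not counted. The poly-A control transcripts added before amplification differed from WT by a mean of -0.14 in atnp01 and -0.22 in atnp02 over 24 probe sets, and the hybridization controls by -0.06 and -0.05 over 18. Their part in the plastid differences was not tested.

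**Figure D5:**
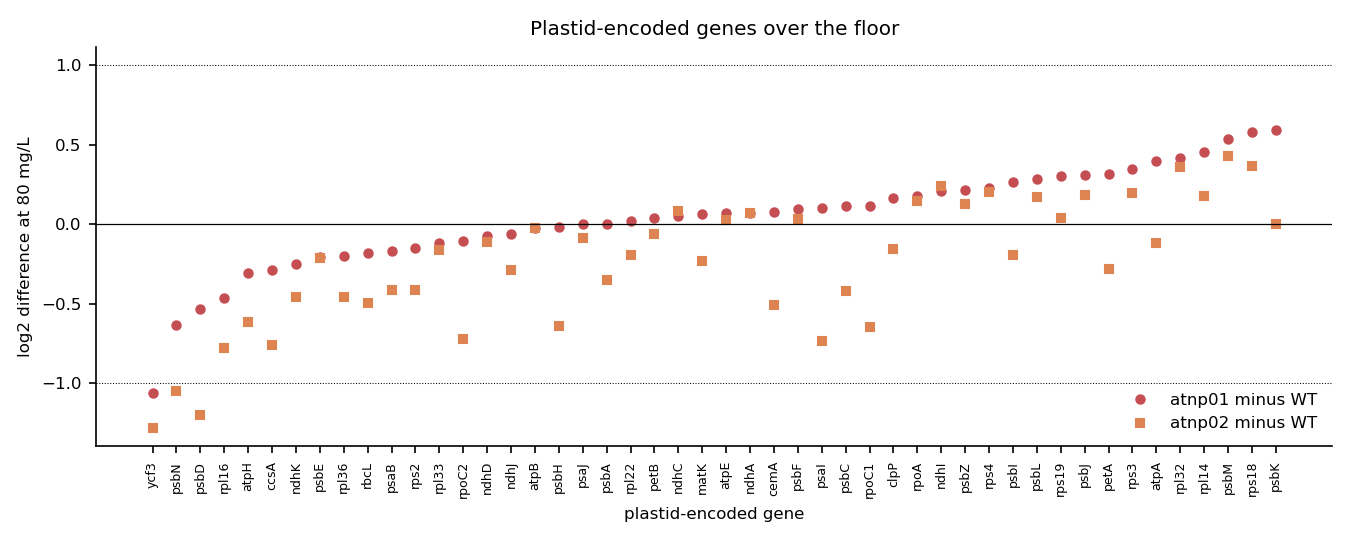
Log2 difference from WT at 80 mg/L (y axis) of the 48 plastid-encoded genes over the floor, ordered by atnp01, for atnp01 (circles) and atnp02 (squares), with dotted lines at 2-fold. The gene ycf3 lies beyond 2-fold in both, and the squares lie below the circles for 44 genes.

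With the floor lowered to log2 5, 26 of 3531 genes (0.736%) were shared, and the 14 that entered were 8 higher and 6 lower. They hold further genes of wall breakdown, in both directions. AT5G48900, a pectate lyase, read 3.90 in atnp01 and 4.59 in atnp02, against 5.78 in WT. ADPG1, a polygalacturonase that separates cells during dehiscence, was on the other side, at 4.51 in atnp01 and 5.29 in atnp02, against 3.10 in WT. The plastid gene accD, for a subunit of acetyl-CoA carboxylase, read 4.54 in atnp01 and 4.16 in atnp02, against 5.88 in WT.

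A pair of genes for proteins with a heavy-metal-associated domain entered in opposite directions. AT5G52750 read 5.34 in atnp01 and 5.27 in atnp02, against 4.19 in WT, and at 0 mg/L 3.47 in atnp01 and 3.38 in atnp02, against 3.81 in WT. AT3G48970 read 2.48 in atnp01 and 3.16 in atnp02, against 5.01 in WT, and at 0 mg/L 3.56 in atnp01 and 4.31 in atnp02, against 4.99 in WT. AT5G52750 was above WT in the exposed mutants only, and AT3G48970 was below WT at both doses. With no floor, 47 of 13355 genes (0.352%) were shared, among them the dim receptor kinase genes AT1G35710 and AT1G51890 and the subtilase gene SBT3.3, all 3 higher in both mutants. These dim genes were named after their values were seen.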

How the data were processed

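Total RNA, 100 ng per sample, was amplified with a 3' IVT kit and hybridised to Affymetrix ATH1 arrays, per the labels' protocols. The deposited values are log2 expression values, which the authors made by RMA in Affymetrix Expression Console 1.1, according to the submitters' processing notes. Its settings, and any step after it, are not stated there. If a step followed, a log2 difference of 1 may not be an exact 2-fold. There was 1 array for each of the 7 groups, and this number limits the precision of all values.

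Of 22810 probe sets, 64 were controls. The platform annotation listed 14016 of the others, 13513 with 1 gene and 503 with several, and 8730 are unnamed here. Symbols came from the TAIR10.1 gene table, which matched 13436, while 77 kept the annotation's name. Of the 13355 genes, 11820 are called by locus code, and the families named for these come from general knowledge. For 147 genes with several probe sets, the one with the highest mean over the 3 exposed arrays was used.

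Log2 differences of single arrays were counted at 1 or more with no test, in Python 3.11.15 with pandas 2.3.3 and matplotlib 3.10.9. Mutants as a class were tested with limma 3.58.1 in R 4.3.3, on 4 cell means (class by dose) with moderation towards an intensity trend, and Benjamini-Hochberg adjusted p-values under 0.05 were called. The fit was tested on simulated data. The genes named are the shared ones (up to 12 in each direction), for each mutant alone the 5 highest and the 5 lowest, and of each list the 2-fold members or up to 4. Some genes outside this rule are said to be chosen after their values were seen. Others carry no such remark but were also not picked by the rule, such as list members under the floor, AT5G22430 and AT2G16005. The members and lists were chosen with earlier results of these data known. The alternatives tried were other floors, normalizations, probe sets, exposed WT arrays, thresholds and models.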

Additional observations from a re-analysis of the deposited data

Results flagged for a closer look

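Among the named genes that were 2-fold from WT in at least 1 exposed mutant, 5 had both mutants on 1 side of WT at 80 mg/L and on the other side at 0 mg/L. RING1 differed from WT by a mean of 1.19 over the mutants at 80 mg/L and -0.25 at 0 mg/L, and the change had an adjusted p of 0.705 in limma. AT1G65500 differed by 0.94 at 80 mg/L and -0.31 at 0 mg/L (adjusted p of the change = 0.598, limma). AT1G30700 differed by 0.84 at 80 mg/L and -0.49 at 0 mg/L (adjusted p of the change = 0.744, limma). GSTU20 differed by 0.63 at 80 mg/L and -0.28 at 0 mg/L, and its value depends on the WT array used. EXPA4 differed by -0.76 at 80 mg/L and 0.48 at 0 mg/L (adjusted p of the change = 0.744, limma).

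In 2 more of these genes, 1 mutant differed from WT at both doses in the direction opposite to the other mutant. AT1G13880 was 2.16 above WT in atnp01 at 80 mg/L, with -0.06 in atnp02. AT3G47160 differed from WT by -1.56 in atnp01 at 80 mg/L, with 0.02 in atnp02. With 1 array per line these differences between the mutants were not tested, and the small values in atnp02 have no reliable sign.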

How the results depend on the processing

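Counts of genes at least 2-fold from WT at 80 mg/L are given for atnp01, atnp02 and both in the same direction, and were 25, 23 and 12. They were 57, 44 and 26 with a floor of log2 5, 13, 11 and 7 with a floor of log2 7, and 137, 118 and 47 with no floor. With WT at 40 mg/L as the exposed WT they were 70, 58 and 46, of which 39 of the 46 were higher and 7 of the first 12 remained. At thresholds chosen after the data were seen they were 76, 65 and 34 at 1.5-fold and 6, 3 and 2 at log2 1.5. Cyclic loess, quantile normalization, median centring and the dimmer probe set kept the counts within 1.5 times, in total and by direction, and loess and centring exchanged AT5G11420 for AT3G23570. With the mean of both exposed WT arrays the totals of 32, 25 and 17 were also within 1.5 times, but the split moved. In atnp02 20 genes were higher and 5 lower, against 11 and 12, and of the shared genes 12 were higher and 5 lower, against 5 and 7, with 7 of the first 12 kept.

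In limma, the count for the mutants against WT at 80 mg/L was 0, and 1 with no floor (AT2G15560, adjusted p = 0.0408), 1 without the trend (AT2G15560) and 1 with additive line and dose terms (SWEET1, mean 1.26 over both doses, adjusted p = 0.000997). For the change between doses it was 0, and 12 with the line as a block. Leaving out each mutant array in turn gave 0 to 0 for both, with 1 residual degree of freedom. The causes were not tested. SWEET1 passed the floor through the mutant arrays at 80 mg/L alone, so the sign of its difference at that dose is set in part by the filter. No paired analysis was possible by replicate number because each group held 1 array, and the fit with the line as a block pairs the doses within a line instead. Of 178 differences of single named genes, 51 changed sign with WT at 40 mg/L as the exposed WT, 29 with the mean of both, 1 each with loess, quantile normalization and centring, and 0 with the dimmer probe set. Of those at least 1.5-fold from WT, 11 changed sign with WT at 40 mg/L, and of those at least 2-fold 1 did, GSTU20 in atnp02, at -0.38. Dim values near the bottom of the scale, such as AT2G15560 in the mutants, have no exact fold.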

Other observations

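Some values belong to no comparison above. Several genes that were 2-fold lower in atnp01 than in atnp02 at 80 mg/L had the opposite order without exposure. AT5G22430 read 4.98 in atnp01 and 6.19 in atnp02 at 80 mg/L, and 4.01 in atnp01 and 1.74 in atnp02 at 0 mg/L. AT2G16005 kept its order, at 5.65 in atnp01 and 6.94 in atnp02 at 80 mg/L, and 5.26 in atnp01 and 6.88 in atnp02 at 0 mg/L. CCS, the copper chaperone of superoxide dismutase, lay under the floor on all exposed arrays, at 5.37 in atnp01, 5.10 in atnp02 and 5.14 in WT. AT3G15670, a late embryogenesis protein gene of the seed list, read 0.81 in atnp01 and 3.97 in atnp02 at 80 mg/L.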
